A study of Homo sapiens with 3 samples.

Results

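Genomic sites bound by SBNO1 far from any promoter and also covered by TAF4 were examined in HUCCT1 cells. These sites, here called shared distal sites, were selected on the peak calls themselves. An SBNO1 peak was a member if it overlapped a TAF4 peak by 1 bp or more, overlapped no IgG peak, and lay with its edge over 10 kb from every protein-coding transcription start site (TSS) and over 1 kb from every TSS of a long non-coding RNA (lncRNA) gene. Of 16147 SBNO1 peaks, 9636 overlapped a TAF4 peak (59.7% of the list, a share the selection used), 8317 of these had no IgG peak, 3347 were over 10 kb from a protein-coding TSS, and 2992 remained as shared distal sites (18.5% of SBNO1 peaks). Chromatin immunoprecipitation followed by sequencing had been performed in HUCCT1, an established human cholangiocarcinoma (CCA) cell line, with an antibody to SBNO1, an antibody to TAF4 or control IgG. The labels name neither a treatment nor a genetic change for the cells. Each antibody gave 1 library from a pool of at least 3 biological replicates, so that the spread between replicates is unknown and no test between libraries was possible. The deposited peak lists hold positions and a score but no read counts, so the depth is unknown, and all intervals given here are 95% intervals that cover counting error over sites only.

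SBNO1 (Strawberry Notch 1) is a nuclear protein with helicase-like motifs, named after a fly gene of the Notch pathway. TAF4 is a subunit of TFIID, the general factor that binds core promoters and helps to place RNA polymerase II at the TSS. Regulatory sites far from promoters, such as enhancers, are bound by sequence-specific factors, among them AP-1 (dimers of FOS and JUN proteins), TEAD (the DNA-binding partners of YAP), RUNX and ETS proteins. General transcription factors are also found at such sites, where short RNAs may start and where loops may bring promoters close. KLF and SP proteins bind GC-rich sequence and are typical of promoters with many CpG dinucleotides.

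The central 200 bp of 8 shared distal sites are shown, taken from the GRCh38 reference on the plus strand. The first 5 are the sites with the most copies of the AP-1 letters TGACTCA, which are set in capitals on either strand (TGAGTCA on the other). Of 23 sites with 3 or more copies, those tied at 3 were taken by score and then width. The next is among the sites with the highest scores and widths. The last pair are high-scoring sites whose window lacks AP-1. Their capitals mark the RUNX letters TGTGGTT on the other strand (chromosome 7) and the ETS letters AGGAAGT on the other strand (chromosome 15).
chr1:236097162-236097361: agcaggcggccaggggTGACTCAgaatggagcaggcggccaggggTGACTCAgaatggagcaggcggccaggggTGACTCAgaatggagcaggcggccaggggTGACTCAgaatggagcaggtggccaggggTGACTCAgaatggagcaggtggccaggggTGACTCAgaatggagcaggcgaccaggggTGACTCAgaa
chr12:7584250-7584449: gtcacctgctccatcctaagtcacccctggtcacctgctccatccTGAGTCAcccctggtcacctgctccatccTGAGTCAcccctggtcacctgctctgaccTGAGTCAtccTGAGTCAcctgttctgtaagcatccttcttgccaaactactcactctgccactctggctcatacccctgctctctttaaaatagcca
chr3:16101570-16101769: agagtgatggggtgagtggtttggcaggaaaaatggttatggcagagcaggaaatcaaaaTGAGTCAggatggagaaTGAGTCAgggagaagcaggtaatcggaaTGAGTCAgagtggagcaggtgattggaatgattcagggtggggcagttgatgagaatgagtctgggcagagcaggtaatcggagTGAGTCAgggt
chr10:63707483-63707682: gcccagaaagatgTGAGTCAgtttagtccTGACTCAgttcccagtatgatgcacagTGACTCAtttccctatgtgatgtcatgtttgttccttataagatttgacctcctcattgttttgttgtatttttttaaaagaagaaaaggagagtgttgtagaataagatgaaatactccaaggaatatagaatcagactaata
chr14:69055274-69055473: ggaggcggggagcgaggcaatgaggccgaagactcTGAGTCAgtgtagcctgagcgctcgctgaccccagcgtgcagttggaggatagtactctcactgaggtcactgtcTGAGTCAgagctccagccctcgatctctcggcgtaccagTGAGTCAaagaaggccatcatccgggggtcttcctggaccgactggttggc
chr17:16865052-16865251: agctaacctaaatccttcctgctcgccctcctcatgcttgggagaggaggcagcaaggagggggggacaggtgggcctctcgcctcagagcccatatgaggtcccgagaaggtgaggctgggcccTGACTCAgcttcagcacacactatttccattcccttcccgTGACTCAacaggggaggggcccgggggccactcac
chr7:54831624-54831823: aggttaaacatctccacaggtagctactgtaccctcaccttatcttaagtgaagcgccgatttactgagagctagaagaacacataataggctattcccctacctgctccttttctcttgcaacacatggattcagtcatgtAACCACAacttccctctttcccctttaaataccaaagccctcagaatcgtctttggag
chr15:100722202-100722401: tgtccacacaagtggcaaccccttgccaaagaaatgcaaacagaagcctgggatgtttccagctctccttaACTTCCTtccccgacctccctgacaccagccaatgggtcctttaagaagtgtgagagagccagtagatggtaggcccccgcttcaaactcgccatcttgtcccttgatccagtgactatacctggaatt

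The sequence on chromosome 1 held 7 AP-1 matches, and all 6 steps between neighbouring matches were 29 bp long. This site lay between NID1, which encodes a basement membrane linker, and GPR137B. The site on chromosome 12, between CD163 and APOBEC1, held 4 matches, and 2 of its steps were also 29 bp. Both SBNO1 and TAF4 had a score of 1000, the highest in the lists, at these 2 sites. The site on chromosome 3 held 4 matches as well, with an SBNO1 score of 527 and a TAF4 score of 1000. The site on chromosome 14 was centred in a coding exon of DCAF5 and lay 75.7 kb from the TSS of ACTN1, the gene of an actin-crosslinking protein. Across all shared distal sites, 182 held 2 or more matches within the 200 bp, which gave 211 steps between neighbours. The most frequent step was 29 bp with 11 occurrences on any strand, followed by 23 bp with 6 occurrences, and the median step was 46 bp. Steps of 29 bp between matches on the same strand were found in 4 sites. Repeated matches on the same strand made up 65.4% of steps at shared distal sites and 55.6% of 279 steps at distal SBNO1 sites without TAF4. Repeat annotation was not used here.

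The geometry of the pairs is given as a description, because the selection required an overlap and so fixed the centres of peaks of these widths to be near each other. At shared distal sites their centres were a median of 49 bp apart (quartiles 22 and 93 bp), and 2333 of 2992 pairs (78.0%) were within 100 bp. A reciprocal overlap of 50% of both peaks was reached by 2595 sites (86.7%). The median overlap was 328 bp, and the smallest was 8 bp. Few sites rested on a minimal overlap, with 1 site at 10 bp or less, and 8 distal SBNO1 peaks without TAF4 missed a TAF4 peak by 100 bp or less. In 20 sites the SBNO1 peak met 2 TAF4 peaks, and the 2992 pairs used 2975 distinct TAF4 peaks. The SBNO1 peak was the wider of the pair in most cases. Its median width was 438 bp (range 77 to 1950 bp), that of the TAF4 peak was 383 bp, and the TAF4 peak was narrower at 63.5% of the sites. At the 3780 shared promoter sites (SBNO1 with TAF4 within 1 kb of a protein-coding TSS), the TAF4 peak was narrower at 41.3%. The TAF4 score reached 1000 at 29.2% of shared distal and at 55.9% of shared promoter sites. The SBNO1 score showed the opposite order, reaching 1000 at 39.2% of shared distal and 33.2% of shared promoter sites. How the score was scaled is not given in the sources used here, and scores were therefore not compared between antibodies.

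Of the 7135 distal SBNO1 peaks without an IgG peak, 2992 (41.9%, interval 40.8% to 43.1%) overlapped TAF4, which the selection fixed. With peaks at or above the median score of their own list the share was 20.7% (711 sites). This share differed between wide and narrow SBNO1 peaks. It was 15.9% (interval 12.1% to 20.2%) for 334 peaks narrower than 200 bp, 36.7% for those from 300 to under 400 bp and 77.8% (interval 73.6% to 81.7%) for 424 peaks of 700 bp or more. The score separated the peaks less, from 25.7% below 500 to 51.8% at 1000. Promoter SBNO1 peaks overlapped TAF4 in 83.0% of cases, and even their narrowest class reached 71.3%. At every width the distal share was therefore below the promoter share, by the smallest margin in peaks of 700 bp or more (77.8% and 92.3%). The part of peak detectability in these shares was not tested.

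**Figure D1:**
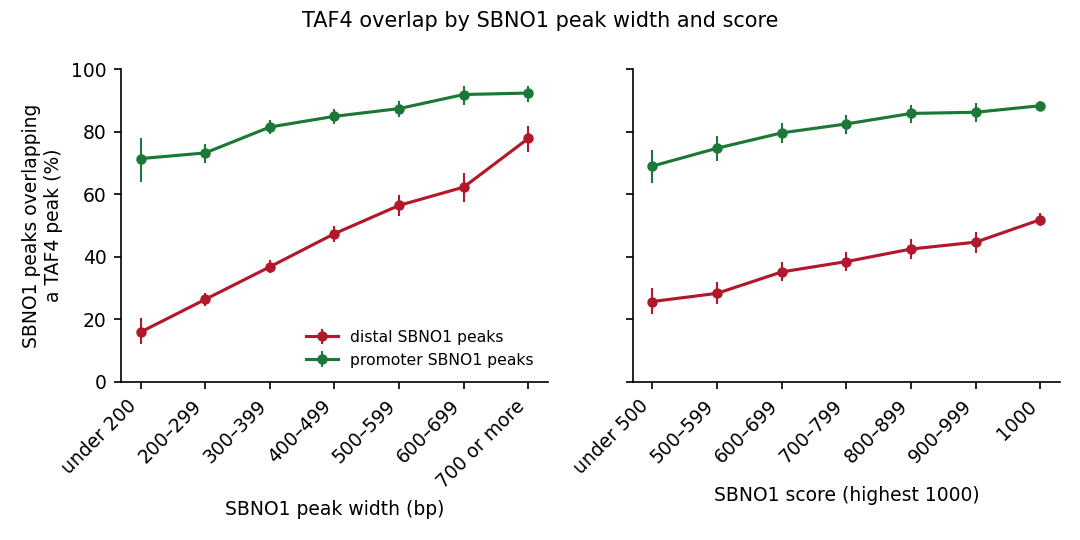
Share of SBNO1 peaks without an IgG peak that overlapped a TAF4 peak (%), by SBNO1 peak width in bp (left) and by SBNO1 score (right), for distal (red) and promoter (green) peaks. Points are shares and bars are 95% Clopper-Pearson intervals. The distal share goes from 15.9% in the narrowest to 77.8% in the widest class and stays below the promoter share in every class.

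AP-1 was the leading sequence at shared distal sites. Its letters were present in the central 200 bp of 1180 of 2992 sites (39.4%, interval 37.7% to 41.2%), compared with 27.8% of all SBNO1 peaks. Windows 1 kb to either side of the same sites held it in 3.91% of cases, a ratio of 10.1 (interval 8.83 to 11.5). Among all distal 200 bp windows of the genome the share was 2.98%, and it was 3.31% after weighting to the GC content of the sites. The whole SBNO1 peaks covered 1.41 Mb, or 0.0589% of the distal sequence, and held 2229 of the 375926 distal AP-1 matches (0.593%). Hence most AP-1 letters of the genome lay outside these sites. Distal IgG peaks held AP-1 in 12.1% of windows, against 2.34% of the windows beside them, and shared promoter sites in 5.90%.

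The matches gathered around the centre of the sites. Of 1426 matches within 100 bp of the SBNO1 peak centre, 789 (55.3%) were within 50 bp. There were on average 5.51 matches per 100 sites in the 2 central 20 bp bins and 0.398 in the outer bins, and the highest bin (5.85) began 60 bp before the centre. Among 1234 sites with exactly 1 match in the SBNO1 peak, the match lay a median of 64 bp from the SBNO1 centre and 68 bp from the TAF4 centre. It was nearer to the SBNO1 centre in 653 and nearer to the TAF4 centre in 573 of them. These sites were chosen for a match inside the SBNO1 peak, so the counts do not compare the proteins. Windows placed on the TAF4 peak centre held AP-1 in 39.3% of sites, similar to the windows on the SBNO1 centre.

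**Figure D2:**
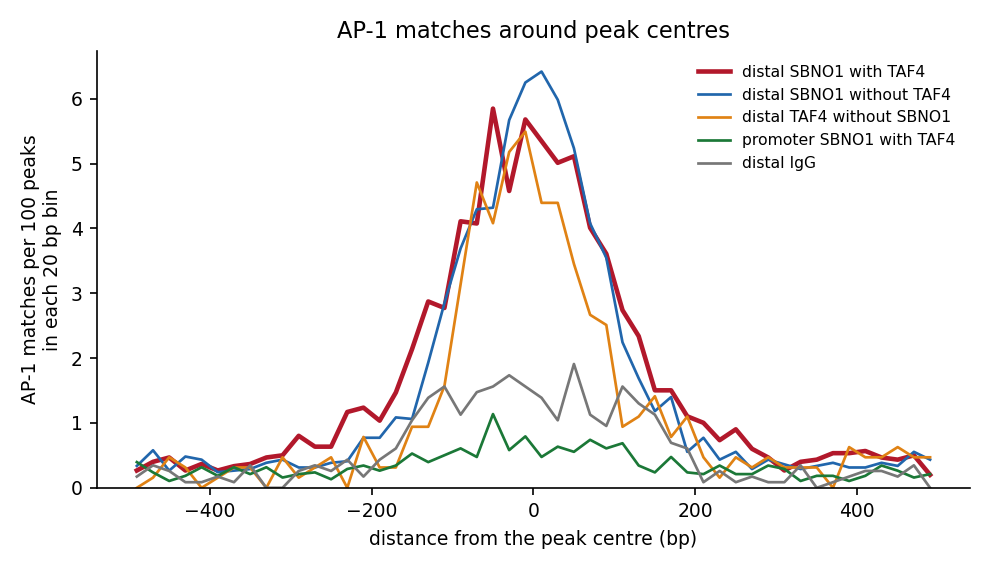
AP-1 matches per 100 peaks in bins of 20 bp (vertical axis) against the distance from the peak centre in bp (horizontal axis), for shared distal sites (thick red line), distal SBNO1 peaks without TAF4, distal TAF4 peaks without SBNO1, shared promoter sites and distal IgG peaks. The red line is high near the centre, where its 2 central bins average 5.51, and falls to 0.398 at the edges. Distal SBNO1 peaks without TAF4 average 6.34 at the centre, and shared promoter sites stay low with 0.635 there.

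The bases next to the AP-1 letters at the sites differed from those of all distal matches. Read in the direction TGACTCA, 1168 of 1391 matches at shared distal sites (84.0%, interval 81.9% to 85.9%) had neither T before nor A after the letters, compared with 56.1% of all distal matches. Matches with both T before and A after made up 0.575% at the sites and 5.66% in the distal genome. The most frequent form at the sites was GTGACTCAG with 12.4%, against 5.99% of distal matches. Distal SBNO1 peaks without TAF4 had a like composition, as 83.4% of their matches had neither of these bases.

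Sites with and without AP-1 differed little in position but differed in shape. The 1180 sites with AP-1 had a median SBNO1 width of 401.5 bp and a score of 1000 in 46.0% of cases, and the 1812 sites without it had a median width of 463 bp and reached that score in 34.8%. The median distance to the nearest protein-coding TSS was 44.9 kb and 44.1 kb. By SBNO1 width, the AP-1 share went from 49.9% in sites under 300 bp to 22.1% in sites of 700 bp or more. The fixed 200 bp window covers a smaller part of a wide peak, and 1670 sites held a match in the whole peak. The part of this limit in the width differences was not tested. By score it went the other way, from 29.5% in sites below 700 to 46.3% at the score of 1000.

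Letters bound by other enhancer factors were also more frequent at shared distal sites than beside them. RUNX letters (TGTGGTT) were present in 11.5% of sites, 2.92 times the share in the windows 1 kb away (interval 2.49 to 3.43). TEAD letters (ACATTCC) were present in 9.16% with a ratio of 3.49. The ETS letters CCGGAA were present in 4.95% (ratio 3.65) and FOXA letters (TGTTTAC) in 5.18% (ratio 1.99). Distal IgG peaks held TEAD letters in 10.7% of windows, more than the shared distal sites, with a ratio of 1.44 to the windows beside them, and RUNX letters in 3.99%. GRHL letters (AACNGGTT), those of an epithelial factor family, had a ratio of 2.08 and the NF-kB motif one of 2.08. At distal IgG peaks the GRHL ratio was 2.38 (interval 1.34 to 4.23), so it was not particular to the shared distal sites. GRHL letters were present in 2.71% of these sites and 2.17% of distal IgG windows. The NF-kB ratio at distal IgG peaks was 1.33 (interval 0.781 to 2.28). HNF4 letters (CAAAGTCCA), of a hepatocyte factor, were found in 12 of 2992 sites, and their ratio of 1.33 had an interval that included 1 (0.643 to 2.76). The NFY letters CCAAT, common at promoters, were no more frequent than beside the sites (23.5% and 24.7%). The TATA box letters TATAAA were less frequent, with 8.36% at the sites and 15.2% beside them, but weighting the distal genome to the GC content of the sites brought its share to 10.3%. The CTCF motif of insulators was found in 9 sites. A further 765 sites without AP-1 (25.6% of all) held RUNX, TEAD, ETS, FOXA, GRHL or KLF/SP letters. Another 1047 sites (35.0%) held none of these nor AP-1. The share of windows beside the sites with any of these letters was not computed. Taken singly, these windows held RUNX letters in 3.93%, TEAD in 2.62%, ETS (CCGGAA) in 1.35% and FOXA in 2.61%. They held GRHL letters in 1.303% and KLF/SP letters in 4.04%. The count of 765 is therefore not a count above the surroundings.

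TEAD letters were less frequent at sites with AP-1 than at sites without it. They were present in 80 of 1180 sites with AP-1 (6.78%, interval 5.41% to 8.37%) and in 194 of 1812 sites without it (10.7%, interval 9.32% to 12.2%). For RUNX the shares were 10.9% with AP-1 and 11.8% without, for ETS 5.17% and 4.80%, and the intervals of both pairs overlapped. These letters occupy part of a fixed window, and the part of that limit in the TEAD difference was not tested.

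**Figure D3:**
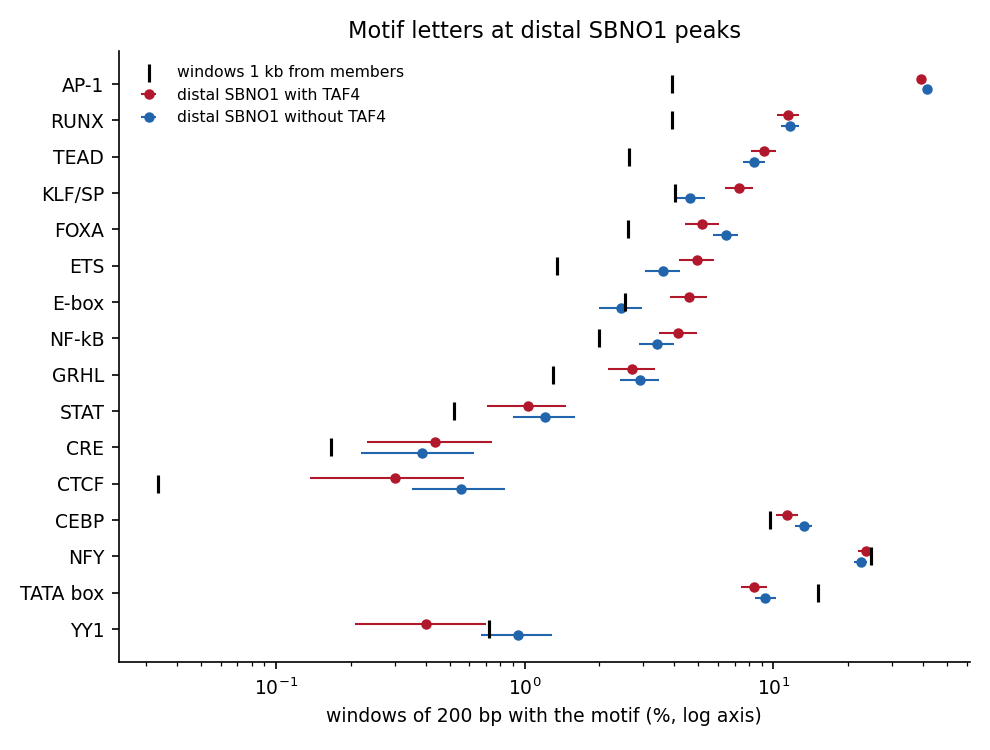
Share of 200 bp windows with each motif (%, log axis) at shared distal sites (red) and at distal SBNO1 peaks without TAF4 (blue), with 95% Clopper-Pearson intervals, and in windows 1 kb from shared distal sites (black ticks). AP-1 stands highest with 39.4% at the sites against 3.91% beside them, and the TATA box lies below its black tick.

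The sites with TAF4 were then compared with the 4143 distal SBNO1 peaks that met the same distance and IgG limits but had no TAF4 peak. The latter were narrower (median 341 bp), had lower SBNO1 scores (median 811 against 917) and a lower GC content (median 45% against 48%). AP-1 letters were present in 41.6% of them, so that the share at shared distal sites was 2.15 percentage points lower, with an interval of -4.46 to 0.16 that includes no difference. The interval excluded 0 with a distance limit of 5 kb (-2.67 points, -4.82 to -0.52) and in 100 bp windows (-2.94 points, -4.94 to -0.94). It also did so with IgG peaks kept (-7.71 points, -9.82 to -5.61). In whole SBNO1 peaks it excluded 0 on the other side, with AP-1 more frequent with TAF4 (3.66 points, 1.31 to 5.996). RUNX (11.5% and 11.7%) and TEAD (9.16% and 8.38%) also differed by less than their counting error. Letters with a CpG were among those more frequent with TAF4. The classes were not compared at like GC content, and its part in these differences was not tested. KLF/SP letters (GGGCGG) were present in 7.29% of shared distal sites and 4.61% of those without TAF4 (2.68 points higher, interval 1.55 to 3.81). The E-box CACGTG, bound by factors such as MYC and USF, was present in 4.58% and 2.44% (2.14 points higher, interval 1.26 to 3.03), and ETS letters CCGGAA in 4.95% and 3.596% (1.35 points higher, interval 0.39 to 2.31). Other forms bound by the same families did not differ beyond counting error, as the ETS letters AGGAAGT were present in 10.4% and 10.3% (interval of the difference -1.31 to 1.56) and the KLF letters CCACACCC in 3.21% and 2.896% (interval -0.50 to 1.12). The promoter letters CCAAT of NFY (23.5% and 22.4%) did not either. SOX letters (ACAATG) were present in 11.5% and 14.4%, C/EBP letters (TTGCNNAA) in 11.4% and 13.3%, FOXA letters in 5.18% and 6.44%, the SRF motif in 1.07% and 1.955% and YY1 letters (AAGATGGC) in 0.401% and 0.941%, with intervals of the differences that excluded 0. In all, 28 motifs were searched without adjustment of the intervals for their number.

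Because the share with TAF4 differed so much by width, the motifs were also compared within 6 classes of SBNO1 peak width, a comparison chosen after seeing the data. The sign of the AP-1 difference then changed. Shared distal sites held AP-1 more often in 5 of 6 classes, and the mean difference weighted by the number of sites was 3.22 points (interval 0.786 to 5.66). Within 5 classes of score the share was lower in all 5, with a mean of -5.13 points (interval -7.49 to -2.78). The direction of the AP-1 difference between sites with and without TAF4 thus depended on the peaks set side by side. The KLF/SP share was higher with TAF4 in 6 of 6 width classes (3.07 points, interval 1.88 to 4.26). By score it was 9.17% with and 3.82% without TAF4 below 700, but 5.46% and 6.15% at the score of 1000, where the intervals overlapped. For the E-box this held in 5 of 6 classes (2.14 points), and for the ETS letters CCGGAA in 5 of 6 (1.58 points). The FOXA difference within width classes was -0.795 points, with an interval of -1.95 to 0.36 that included 0.

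**Figure D4:**
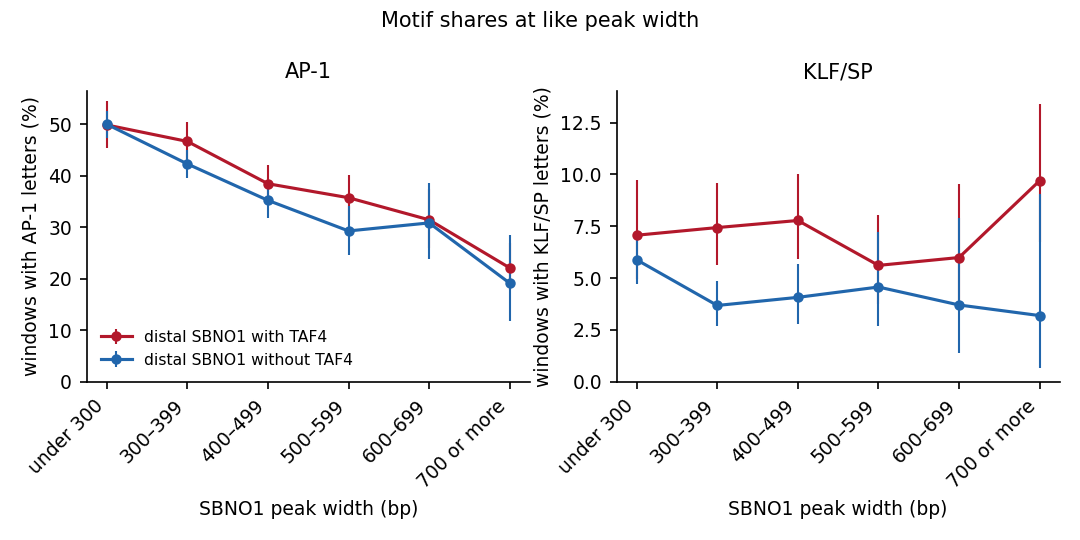
Share of 200 bp windows with AP-1 letters (left) and KLF/SP letters (right), in %, by SBNO1 peak width in bp, for distal SBNO1 peaks with TAF4 (red) and without TAF4 (blue). Bars are 95% Clopper-Pearson intervals. AP-1 decreases with width in both, from 49.9% to 22.1% with TAF4, and the red KLF/SP points lie above the blue ones in all 6 classes.

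Distal TAF4 peaks without SBNO1 gave a second comparison. These 637 peaks had a median width of 308 bp and held AP-1 in 31.9% of windows (interval 28.3% to 35.6%), less than the 39.4% of shared distal sites. Their windows held 10 or more CpG in 10.5% of cases, compared with 4.04% of shared distal sites and 1.76% of distal SBNO1 peaks without TAF4. The intervals of these shares did not overlap. Distal IgG peaks reached 11.98% (interval 10.2% to 13.995%), which overlapped the interval of the distal TAF4 peaks without SBNO1 (8.24% to 13.2%). A high share was therefore not particular to TAF4 peaks. Among shared promoter sites the share was 79.8%.

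The 121 shared distal sites with 10 or more CpG formed a distinct minority. KLF/SP letters were present in 52.1% of them (interval 42.8% to 61.2%), against 5.40% of the other 2871 sites, which the GC content of these letters partly fixes. ETS letters CCGGAA were present in 19.8% and 4.32%, which the CpG within these letters also partly fixes. AP-1 letters were present in 26.4% and 39.99%, and RUNX letters in 3.31% and 11.8%. Their median SBNO1 score was 774, below the 923 of the other sites. A start that the distance limits had not used (a non-coding transcript of a protein-coding gene, a gene type other than protein-coding or lncRNA, or a RefSeq gene start) was near 30 of the 121 (24.8%) and 160 of the others (5.57%).

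Over all shared distal sites, 143 (4.78%) lay within 1 kb of such a GENCODE start, and 57 sites were near a gene of another type. Starts annotated as small nuclear RNA genes, a type whose RNAs form the spliceosome, accounted for 14. Some of these entries have pseudogene names, such as RNU6-450P, and 5 of the 14 sites covered the start. Of these 14 sites, 8 were within 1 kb of the start of U1 or U2 genes. Among these were 3 between chr17:43241747-43242428 and chr17:43278731-43279245. Of the 14 sites, 13 held no AP-1 letters. The site chr1:44721432-44721971 covered the start of RNU5F-1, and chr1:144412571-144413023 that of RNVU1-15, with SBNO1 scores of 862 and 1000. Distal SBNO1 peaks without TAF4 were near a small nuclear RNA start at a similar rate (0.362% against 0.468%), and distal IgG peaks at a higher one (1.74%). U1 and U2 genes are present in near-identical copies, so reads at these sites may be split among copies or placed at the wrong one. The site chr5:140718486-140719049 covered VTRNA1-2, a vault RNA gene transcribed by RNA polymerase III, and held 2 AP-1 matches.

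Shared distal sites were spread over introns and the space between genes. Their centres lay in introns of protein-coding genes in 40.1% of cases (interval 38.3% to 41.9%), between such genes in 58.1%, in untranslated exons in 1.40% and in coding exons in 0.368%. Distal SBNO1 peaks without TAF4 had 41.2% in introns, and all distal windows of the genome 37.0%. The median distance to the nearest protein-coding TSS was 44.4 kb, with quartiles of 22.2 and 102 kb. The share of SBNO1 peaks with TAF4 was 83.0% up to 1 kb, 48.0% from 1 to 10 kb, 44.9% from 10 to 20 kb, 43.1% from 50 to 100 kb, 37.8% from 100 to 500 kb and 29.4% beyond 500 kb. AP-1 letters were present in 37.8% of the sites at 10 to 20 kb and in 41.2% of those at 100 to 500 kb, but in 26.97% (interval 18.1% to 37.4%) of the 89 sites beyond 500 kb. KLF/SP letters were present in 9.97%, 5.24% and 5.62% of the sites in these classes, and the median GC content was 50%, 46% and 43%.

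The distance limit cut through a continuous range. Just inside it lay chr10:73601476-73601870 in an intron of USP54 (10033 bp from a TSS) and chr17:41678352-41678847 near EIF1 (10038 bp). Just outside lay peaks at FAM25C (9990 bp), STK24 (9981 bp) and AHNAK2 (9962 bp). In all, 66 sites were within 1 kb beyond the limit and 89 peaks within 1 kb before it. A lncRNA TSS removed 355 further peaks, and an IgG peak removed 893 distal ones.

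Chromosomes differed widely in the number of sites. Chromosome 5 held 326, chromosome 1 held 311, chromosome 18 held 15 and chromosome X held 22. Per Mb of distal sequence, chromosome 17 had 3.08 sites, chromosome 20 had 2.79, chromosome 11 had 2.17 and chromosome X had 0.164. Distal SBNO1 peaks without TAF4 showed a like order, with 3.15 per Mb on chromosome 17 and 0.418 on chromosome X. The share of distal SBNO1 peaks with TAF4 was lowest on chromosome X (28.2%, interval 18.6% to 39.5%) and highest on chromosome 17 (49.4%, interval 43.96% to 54.9%) among the 23 chromosomes without Y. The copy number of chromosomes in this cell line was not measured here, and its part in these counts was not tested.

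Most sites stood alone. With sites up to 12500 bp apart joined, 2992 sites formed 2456 units, of which 2072 had a single site, and 920 sites (30.7%, interval 29.1% to 32.4%) had a neighbour. With peaks at or above the median score of their own list, 13.6% had one. Only 12 units held 5 or more sites. A unit of 7 sites over 40.6 kb (chr1:202022831-202063428) lay 12.2 kb from the TSS of ELF3, an epithelial ETS factor, and 4 of its sites held AP-1. Another 7 sites over 21.9 kb (chr20:35305705-35327634) lay inside UQCC1, and 5 of these held AP-1. A unit of 6 sites on chromosome 17 (chr17:59837232-59856036), between the TSS of VMP1 and TUBD1, held no AP-1 letters in any window, although 4 of its sites had a score of 1000.

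Genes around the sites were described with 10 gene lists. Any shared distal site within 100 kb of a TSS was counted for a gene, which does not show that the site acts on it. Of 19689 protein-coding genes, 3173 (16.1%) had such a site, and 757 sites (25.3%) had no protein-coding TSS within that reach. Of the listed genes for actin and migration, 14 of 24 (58.3%, interval 36.6% to 77.9%) had a site. This held for 11 of 20 ERBB, MET and growth factor genes (55.0%), 11 of 22 interleukin and IL6 family genes, 7 of 15 AP-1 factor genes (46.7%), 11 of 24 biliary genes (45.8%), 10 of 22 YAP and TEAD genes (45.5%) and 8 of 20 laminin, integrin and adhesion genes. All 7 intervals lay above 16.1%. They are a description and not a test, because the lists were written with earlier results of these data known. Neighbouring genes can also count the same site, so the genes of a list are not independent. For the Notch pathway the count was 4 of 20 (interval 5.73% to 43.7%), for hepatocyte genes 3 of 24 (interval 2.66% to 32.4%) and for neuronal genes 0 of 20 (upper limit 16.8%). The median number of sites per gene was 0 for all protein-coding genes and for most lists, 1 for the actin and the growth factor genes and 0.5 for the interleukin genes. Distal SBNO1 peaks without TAF4 were near 22.2% of all genes and 16.7% of the hepatocyte genes. They were near 75% of the actin, 62.5% of the biliary, 60% of the growth factor, 59.1% of the YAP and TEAD and 55% of the adhesion genes. Each of these shares was higher than that for shared distal sites. For the interleukin genes the share was the same, and for the AP-1 factor genes it was lower (33.3%). The high shares of these lists were therefore not particular to sites with TAF4. Distal SBNO1 peaks without TAF4 were near 8 of 20 Notch and 3 of 20 neuronal genes, compared with 4 and 0 for the shared distal sites.

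**Figure D5:**
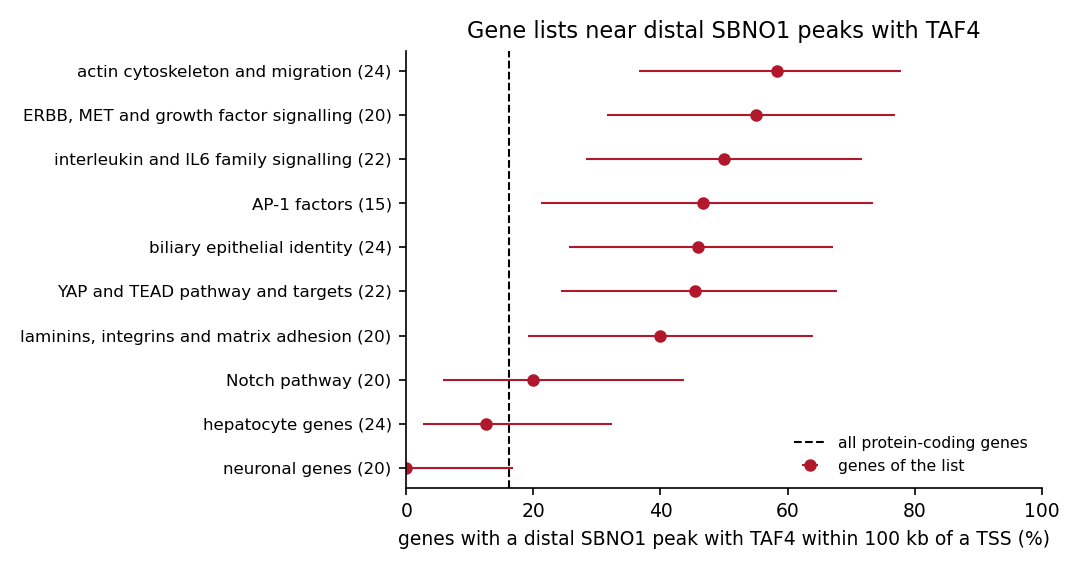
Share of the genes of each list (number of genes in brackets) with a shared distal site within 100 kb of a TSS, in %. Points are shares, bars are 95% Clopper-Pearson intervals and the dashed line is the share among all protein-coding genes (16.1%). The actin list is highest at 58.3%, and the Notch, hepatocyte and neuronal lists are not separated from the line.

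Growth factor receptors and ligands differed in their number of sites. The receptor genes ERBB2, ERBB3, MET and FGFR2 and the ligand gene HGF had none within 100 kb. EGFR, the receptor of epidermal growth factor, had 6 sites within 100 kb, and the strongest (chr7:55132360-55133260, an intron of EGFR, 22.6 kb from a TSS) was 901 bp wide with an SBNO1 score of 1000 and a TAF4 score of 855. The neighbouring ligand genes EREG and AREG had 4 and 3 sites and shared one at chr4:74408701-74408918, which lay 43.6 kb from EREG and 36.2 kb from AREG. DUSP5, a phosphatase that switches off ERK, had 6 sites, with the strongest at chr10:110408139-110408685 scoring 1000 for both proteins. DUSP4 and SPRY4, which also restrain this pathway, had 1 and 3 sites within 100 kb. Counted at any distance, they were the nearest gene of 8 and 6 sites. SPRY2, SPRED1 and SPRED2 of the same list had no site within 100 kb.

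Cytokine genes of the IL6 family were led by LIF, with 5 sites. The strongest (chr22:30205247-30206091, 40.6 kb from the TSS) was 845 bp wide, scored 1000 for both proteins and held no AP-1 letters in its window. SOCS3, the feedback inhibitor of this pathway, had 3 sites. Its strongest was 953 bp wide with an SBNO1 score of 773 and a TAF4 score of 1000. IL6 itself had 2 sites, of which the stronger (chr7:22647467-22647780) lay in an intron of STEAP1B. No site was counted for IL11, CXCL1, CCL20, NFKBIA or TNFAIP3.

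Among the AP-1 factor genes, ATF3 had 6 sites and JUN and FOSL2 had 3 each. The strongest site of ATF3 (chr1:212667376-212667874) and that of JUN (chr1:58881345-58881828) held 1 AP-1 match each in the window. Those of FOSL2 and BATF held no AP-1 letters in the window or the whole peak. The ATF3 site lay 52.2 kb from ATF3 and 32.0 kb from BATF3. FOSB, JUNB and JUND had none within 100 kb, although a shared promoter peak lay at each of them. Of the YAP and TEAD list, F3 (tissue factor) had 6 sites and AMOTL1, AMOTL2 and CCN1 had 3, 3 and 2. CCN2, a widely used YAP target, had no site. CRIM1 had none either, but had 7 distal SBNO1 peaks without TAF4.

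Of the biliary epithelial genes, ELF3 had 7 sites within 100 kb, EHF (another epithelial ETS factor) had 4 and KRT7 had 3. KRT19, a keratin that marks cholangiocytes, had 2. SOX9, a regulator of bile duct cells, was the nearest gene of more sites than any other gene, and was also chosen after its values were seen. Its 11 sites spread over 1033 kb at 15.7 to 696 kb from the TSS, 1 of them was within 100 kb and 4 of them held AP-1. Hepatocyte genes had 3 sites in all, 1 each at APOH, ASGR2 and SERPINA1.

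Adhesion and actin genes were represented by CD44 (6 sites and no distal SBNO1 peak without TAF4), COL17A1 (2) and ITGA2 (2). The strongest site of CD44 (chr11:35077504-35078014) held 2 AP-1 matches, scored 1000 for SBNO1 and 757 for TAF4, and lay 60.9 kb from the TSS. MYOF, a membrane repair protein, had 7 sites and PLAU (urokinase) and TNS3 had 5 each. The strongest PLAU site (chr10:73932312-73932795) held 2 AP-1 matches. In the Notch list, the ligand gene JAG1 had 4 sites, and HES1 and RBPJ had 2 each. The JAG1 site with the highest score (chr20:10705873-10706390) lay 31.9 kb from the TSS and held no AP-1 letters, while that of HES1 (chr3:194089506-194089985) held AP-1 and TEAD letters. Notch receptors had no shared distal site within 100 kb, but NOTCH2 had 3 distal SBNO1 peaks without TAF4. Across all genes, the highest count was 8 sites within 100 kb, found at DCBLD2, DENND3, DUSP1, EMP1, SKAP1 and STEAP1B. These 6 genes, as well as DUSP4, SPRY4, KRT19, CRIM1, NOTCH2 and the named genes without a site, were chosen after their values were seen.

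An SBNO1 score of 1000 was shared by 1173 sites, and the 6 widest of these are described. The widest (chr7:54831037-54832410, 1374 bp) lay between SEC61G and EGFR, 71.1 kb from the former and 187 kb from the latter, with a TAF4 peak of 1230 bp and a TAF4 score of 820. The site chr6:30768955-30770168 lay 24.4 kb from IER3, an early response gene, and scored 1000 for both proteins. The site chr15:100721710-100722893 lay between ASB7 and ALDH1A3, with the TAF4 centre 272 bp from the SBNO1 centre. Each of these 3 windows lacked AP-1, but each whole peak held 1 match. The site chr1:17233078-17234099 lay in an intron of PADI1, and chr17:16864641-16865662 between CCDC144A and TNFRSF13B. The sixth, on chromosome 8 between PABPC1 and YWHAZ, was 1007 bp wide and scored 1000 for both proteins.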

How the data were processed

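The 3 deposited peak lists were used (SBNO1, TAF4 and IgG, 1 library per antibody). Per the labels' processing notes, reads were aligned to GRCh38.p14 with Bowtie2 2.5.4 and Genrich 0.6.1 was used, whereas the study's methods name normR as the peak caller. The caller that made these lists, its threshold and the use of IgG are therefore uncertain. The values deposited by the authors are a score per peak, in whole numbers up to 1000, whose scaling is not given in the sources used here. The lists hold no counts, signal or summits.

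Peaks were grouped by overlap and by distance from GENCODE release 44 starts (78567 protein-coding and 48183 lncRNA TSS). Coordinates are 1-based on GRCh38. Motif letters were counted on both strands in 200 bp at the peak centre, in windows 1 kb to either side and in all distal windows, with the GC weights taken in classes of 2 percentage points. Shares have Clopper-Pearson intervals, ratios log-scale and differences normal-approximation intervals. Peaks are not replicates, and no test between antibodies was made. The named sites were the 6 highest-scoring (ties by width), the 5 with most AP-1 matches, the 3 highest without AP-1, those next to the distance limit, the 3 largest units, and the highest-scoring site of up to 4 genes per list with the most sites. Of the sites this rule names, 2 are not reported here. The members, gene lists and motifs were chosen with earlier results of these data known. The functions were tested on simulated data. Python 3.11.15, numpy 2.4.6, pandas 2.3.3, scipy 1.17.1 and matplotlib 3.10.9 were used.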

Additional observations from a re-analysis of the deposited data

How the results depend on the processing

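No paired analysis was possible because there was a single library for SBNO1, TAF4 and IgG each. Shares, ratios and medians are named here where they fell outside the 95% interval of the reported value, and numbers of sites where they differed more than 1.5 times. This applied to 37 of 82 recomputed values, and 45 did not move so far. The AP-1 difference took the other sign under 3 alternatives below, but its reported interval already included 0. With distances over 5, 20 and 50 kb the intron share was 42.8%, 36.7% and 28.4%, and over 50 kb there were 1368 sites and a TAF4 share of 39.3%. Away from every TSS of any type there were 1845 sites, 40.7% with TAF4, 38.3% in introns and 26.99% with a neighbour. A reciprocal overlap of 50% gave a TAF4 share of 36.4%, an AP-1 share of 41.5%, an AP-1 difference of 1.22 points, a centre distance of 43 bp and 27.2% with a neighbour. With peaks over IgG kept these were 48.1%, 33.6%, -7.71 points and 42.2% with a neighbour, with 34.5% in introns. Peaks at or above the median score of their own list gave 711 sites, a TAF4 share of 20.7%, an AP-1 share of 45.6%, a ratio of 12.46, a centre distance of 36 bp and 13.6% with a neighbour. The AP-1 share was 22.5% in 100 bp and 55.8% in whole peaks, where the ratio was 5.94 and the difference 3.66 points. Against all distal windows the ratio was 13.2, and 11.9 with GC weights. Neighbours within 5 and 25 kb were found for 20.4% and 40.3% of sites, and counting any distal SBNO1 peak for 46.4%. Alternatives chosen after seeing the data gave an AP-1 difference of 3.22 points within width classes and -5.13 points within score classes, and a TAF4 share of 47.4% in peaks from 400 to under 500 bp. The cause of these shifts was not tested. Windows at summits were not run, the median filter used the score, and the background enters only the ratio. With 1 library per antibody and no read counts, depth limits which sites were called to an unknown extent.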
